A study of Homo sapiens with 12 samples.

Results

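NEK kinases are a family of serine/threonine kinases named after NIMA, a mitotic kinase of Aspergillus. The expression of 10 members was examined in bladder carcinoma cells after knockdown of KMT9α: NEK1, NEK2, NEK3, NEK4, NEK5, NEK6, NEK7, NEK8, NEK9 and NEK11. They were picked by symbol from the 23064 gene symbols of the deposited tables, taking for each the transcript with the most counts. The family was selected with the fall of NEK7 upon knockdown already known. The members' changes upon knockdown are therefore given as a description, without p-values. NEK10 was not among the members, and its highest count in any library was 7.

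As background, NEK9 is activated in early mitosis by CDK1 and PLK1. It then activates the close paralogs NEK6 and NEK7, which phosphorylate the kinesin KIF11 so that the centrosomes move apart and the spindle forms. NEK2 dissolves the protein linker that holds the centrosomes together before mitosis. NEK1 and NEK8 act at the primary cilium, and mutations in either cause ciliopathies, whereas NEK1, NEK4 and NEK11 have also been tied to the response to DNA damage. NEK7 has a further role outside mitosis, since it binds NLRP3 and is needed for assembly of the NLRP3 inflammasome.

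The RNAseq data covered 2 established human bladder carcinoma cell lines, CAL-29 and 5637. In each line, 3 libraries of siCtrl-treated cells and 3 of siKMT9α#1-treated cells were sequenced, 12 libraries in all, from cells harvested at day 3. KMT9α, encoded by N6AMT1, is the catalytic subunit of a lysine methyltransferase. The siRNAs were used at 50 nM with RNAiMAX in CAL-29 cells and at 90 nM with DharmaFECT 3 in 5637 cells, so cell line, reagent and dose cannot be told apart. The labels call the treatment only an siRNA and the tables call it si270, and its identity as siKMT9α#1 is taken from the study's text. A single siRNA was sequenced, without a second one against the same transcript. By qRT-PCR, the study also reported changed expression of selected genes after KMT9α knockdown, NEK7 and WEE1 among them. Nothing in the labels says that the libraries of a group came from separate cultures, and the p-values measure only the spread between these libraries, which may be technical.

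The stretches of RNA that siKMT9α#1 matches are shown first, because the guide strand of an siRNA can also pair with other transcripts through its bases 2 to 8. The letters complementary to these bases are ACATTCA, and they are in capitals in the 25-base windows below. The windows were read from GENCODE transcripts on GRCh37, the assembly that hg19 denotes, and are written 5′ to 3′ along the transcript. The first is the target in exon 3 of N6AMT1, in the coding sequence at chr21:30254500-30254524 on the minus strand. The second lies in the 3′ UTR of NEK7, in exon 10 at chr1:198289204-198289228 on the plus strand. The third lies in the 3′ UTR of NEK9, in exon 22 at chr14:75548310-75548334 on the minus strand.
N6AMT1: acgctgtaacaaagttcACATTCAa
NEK7: tagaactcttagcttatACATTCAa
NEK9: ttgccatatgttcacaaACATTCAt

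Of the 25 bases, 12 were equal to the target in the NEK7 window and 11 in the NEK9 window, counting the 7 capitals. NEK7 and NEK9 were the 2 of the 10 members whose longest annotated 3′ UTR held ACATTCA on the sense strand. Among 12394 genes tested in both lines with a 3′ UTR of at least 50 bases, 15.4% held it. The 3′ UTRs of NEK7 and NEK9 had 2898 and 5211 bases, against a median of 1521.5 bases. With the shortest annotated 3′ UTR of each gene, NEK7 was the 1 member with a match, and 6.01% of genes had one. NEK1 and NEK3 each held 1 match upstream of the 3′ UTR. The letters complementary to bases 2 to 8 of the passenger strand, TACAGCG, and of the siCtrl guide strand, ACGCAAA, were found in the 3′ UTR of 0 of the 10 members, beside 1.83% and 2.08% of all genes. Such a match is a description of the letters, holds only if the siRNA was siKMT9α#1, and its part in the values below was not tested.

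Libraries held between 24479348.5 and 35151256.5 counts on the transcripts kept. N6AMT1, the target of the siRNA, was at 11.4, 10.2 and 9.68 CPM, which are counts scaled to a common library size, in the siCtrl libraries of CAL-29 cells and at 2.82, 2.93 and 1.99 CPM in the siKMT9α#1 libraries. In 5637 cells, it was at 13.4, 13.2 and 13.3 CPM with siCtrl and at 3.75, 2.22 and 2.56 CPM with siKMT9α#1. The groups did not overlap in either line. Of 10 epithelial and urothelial markers, 10 in CAL-29 cells and 9 in 5637 cells reached 1 CPM in every library, while UPK2, a uroplakin, stayed at or below 0.736 CPM in 5637 cells. Of 7 markers of other cell types, CD68 alone was above 1 CPM in all libraries. VWF reached 1.10 CPM in CAL-29 cells and PDGFRB 1.74 CPM in 5637 cells, and PTPRC, CD3E, PECAM1 and DCN did not exceed 0.326 CPM.

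NEK7 fell most of the family in both lines. The gene lies on chromosome 1 (hg19 positions 198126124 to 198291550, plus strand) and was counted on a single transcript. In CAL-29 cells, NEK7 was at 186, 182 and 181 CPM in the siCtrl libraries and at 24.1, 26.5 and 21.8 CPM in the siKMT9α#1 libraries. All 3 knockdown libraries were far below all 3 controls, and the spread within a group was small beside the gap. The log2 fold change was -2.92 ± 0.06 (SE, n = 3 per group), a level in siCtrl cells 7.56 times that in knockdown cells. A lower log2 fold change was found for 88 of the 14673 genes that entered the test in this line.

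The 5637 cells started from a lower level of NEK7, with 73.8, 67.9 and 70.3 CPM in the siCtrl libraries and 11.3, 11.0 and 10.4 CPM after knockdown. Again the groups did not overlap. The log2 fold change was -2.70 ± 0.06 (SE, n = 3 per group), a level in siCtrl cells 6.50 times that after knockdown, and 62 of 14335 genes tested had a lower value. The responses of the lines differed by 0.20 ± 0.09 (log2, 5637 minus CAL-29, SE). Thus 13.2% of the siCtrl level of NEK7 was left in CAL-29 cells and 15.4% in 5637 cells. For comparison, the siCtrl level of N6AMT1 was 3.99 times that after knockdown in CAL-29 cells and 4.69 times in 5637 cells.

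**Figure D1:**
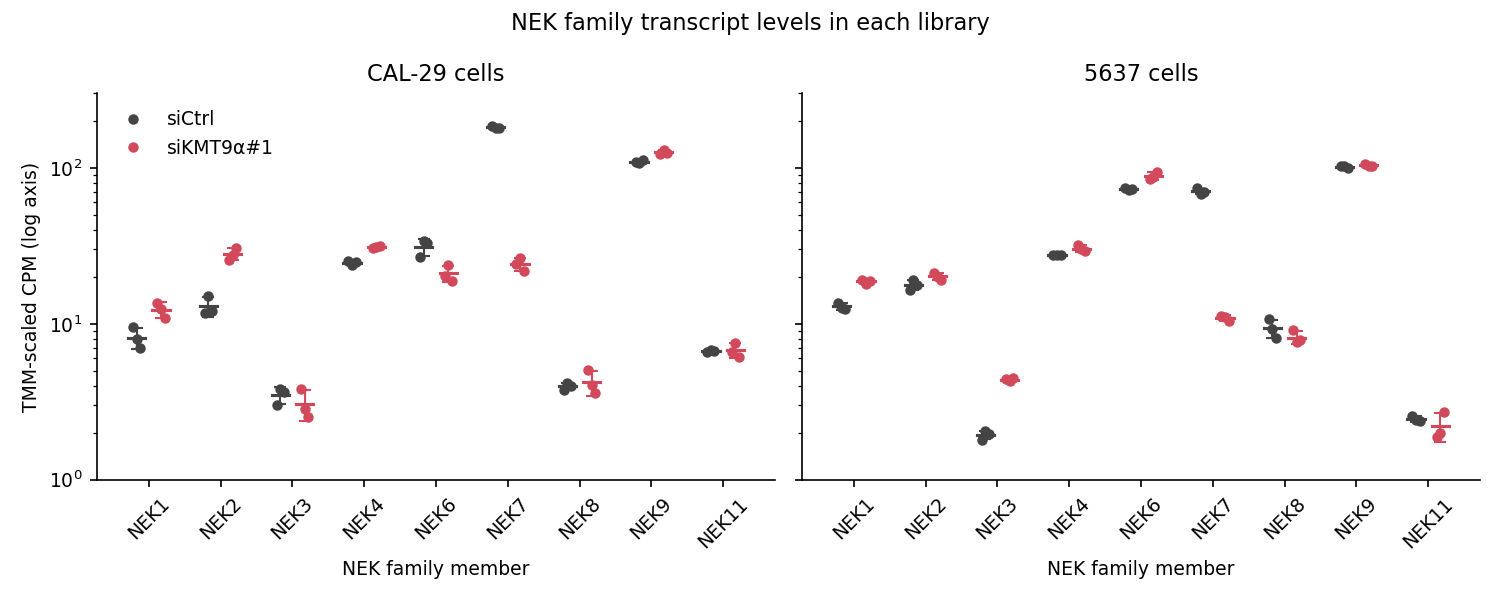
TMM-scaled CPM (log axis) of the 9 NEK family members that passed the filter on low counts, in siCtrl (grey) and siKMT9α#1 (red) libraries of CAL-29 cells (left) and 5637 cells (right). Each point is 1 library, and lines and bars give the mean and SD of 3 libraries. NEK7 drops from 183 to 24.1 CPM on average in CAL-29 cells and from 70.7 to 10.9 CPM in 5637 cells, while NEK6 moves down on the left and up on the right.

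NEK6 and NEK9, the kinases that work with NEK7 in mitosis, showed no drop of this size. NEK6 (chromosome 9, positions 127019885 to 127115586, plus strand) moved in opposite directions in the lines. In CAL-29 cells, it was at 26.8, 33.8 and 32.7 CPM with siCtrl and at 20.4, 23.9 and 18.9 CPM with siKMT9α#1. In 5637 cells, the siCtrl libraries were at 74.3, 72.4 and 73.7 CPM and the siKMT9α#1 libraries at 85.0, 87.5 and 94.5 CPM. All knockdown libraries were thus below the controls in CAL-29 cells and above them in 5637 cells.

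The log2 fold change of NEK6 was -0.56 ± 0.09 (SE) in CAL-29 cells and 0.28 ± 0.04 (SE) in 5637 cells, a difference of 0.82 ± 0.10 (SE) between the lines. The tables list 7 transcripts of NEK6 with distinct counts, which lie between 29.0 and 30.3 CPM in CAL-29 siCtrl cells and so share most of their reads. These CPM were scaled to library totals without TMM, so their ratios differ from the log2 fold changes of the fit. On this scale, every 1 of the 7 was lower upon knockdown in CAL-29 cells, by -0.48 (log2), and higher in 5637 cells, by 0.22. NEK6 and NEK7 are paralogs, and how reads matching both were assigned is not given in the sources used here.

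NEK9 (chromosome 14, positions 75546056 to 75594047, minus strand) was nearly level. It was at 108, 107 and 113 CPM in siCtrl and 123, 130 and 125 CPM in siKMT9α#1 libraries of CAL-29 cells, which did not overlap. The corresponding values in 5637 cells were 103, 102 and 99.98 CPM against 106, 103 and 102 CPM, which overlapped. Its log2 fold changes were 0.20 ± 0.05 (SE) in CAL-29 cells and 0.03 ± 0.04 (SE) in 5637 cells. When libraries were scaled to their total counts, the 5637 value was -0.03. The log2 fold changes of NEK7 were -2.92 and -2.70.

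NEK2, the kinase of the centrosome linker (chromosome 1, positions 211831999 to 211848972, minus strand), rose in CAL-29 cells. The CPM values there were 11.7, 15.1 and 12.1 with siCtrl and 25.8, 27.5 and 30.6 with siKMT9α#1. In 5637 cells, they were 16.5, 19.1 and 17.8 with siCtrl and 21.1, 20.0 and 19.2 with siKMT9α#1, where the highest control library lay just below the lowest knockdown library. This gave a log2 fold change of 1.11 ± 0.09 (SE) in CAL-29 cells and 0.18 ± 0.07 (SE) in 5637 cells, a difference of -0.95 ± 0.12 (SE) between the lines. NEK2 RNA accumulates in cells that approach mitosis, and in bulk libraries more such cells and more NEK2 RNA per cell cannot be told apart.

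NEK1 and NEK3 were the other members with a change of size. NEK1, a kinase of cilia and DNA repair (chromosome 4, positions 170290855 to 170533783, minus strand), was higher after knockdown in both lines. Its CPM values were 9.46, 7.93 and 7.03 with siCtrl and 13.6, 12.4 and 10.8 with siKMT9α#1 in CAL-29 cells, and 13.7, 12.7 and 12.4 against 19.2, 18.0 and 18.9 in 5637 cells. The groups did not overlap in either line. The log2 fold changes were 0.60 ± 0.12 (SE) and 0.54 ± 0.07 (SE), which differed by less than their errors (-0.07 ± 0.14, SE).

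NEK3, a cytoplasmic member linked to prolactin signaling and cell motility (chromosome 13, positions 52706775 to 52733732, minus strand), responded in 5637 cells. It was at 1.81, 2.05 and 1.96 CPM with siCtrl and at 4.42, 4.28 and 4.46 CPM with siKMT9α#1 there, so that every knockdown library held more than any control. In CAL-29 cells, 3.02, 3.83 and 3.63 CPM stood against 3.83, 2.84 and 2.51 CPM, and the groups overlapped. The log2 fold change was 1.18 ± 0.15 (SE) in 5637 cells and -0.19 ± 0.19 (SE) in CAL-29 cells. The difference between the lines, 1.35 ± 0.24 (log2, SE), was the largest in the family. The counts behind NEK3 are low, with a mean of 93.8 per library in 5637 cells and 90.3 in CAL-29 cells.

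**Figure D2:**
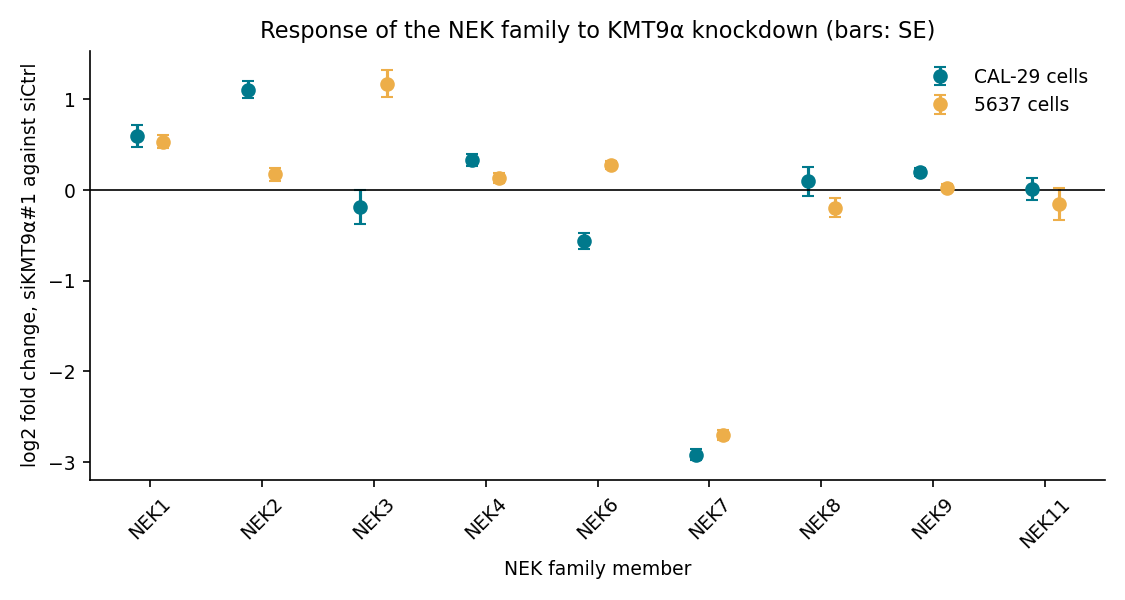
Log2 fold change of 9 NEK family members, siKMT9α#1 against siCtrl, in CAL-29 (teal) and 5637 (yellow) cells, with the standard error as bars and 3 libraries per group. NEK7 lies at -2.92 and -2.70, far from the rest of the family, and NEK2, NEK3 and NEK6 are the members with the widest gap between the lines.

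The remaining members had log2 fold changes of at most 0.33 in size or were not measurable. NEK4, which acts in DNA damage signaling and cilia (chromosome 3, positions 52742460 to 52804962, minus strand), was at 23.7 to 25.1 CPM with siCtrl and 30.5 to 31.6 CPM with siKMT9α#1 in CAL-29 cells. Its range in 5637 cells was 27.6 to 27.8 CPM with siCtrl and 29.2 to 32.0 CPM with siKMT9α#1. The groups were apart in both lines, with log2 fold changes of 0.33 ± 0.06 (SE) and 0.13 ± 0.06 (SE). Of the exon bases of NEK4, 42.3% are shared with genes on the opposite strand, and strandedness of the counting is not given in the sources used here, so reads of such genes could not be told apart from those of NEK4.

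NEK8, the ciliary kinase of the inversin compartment (chromosome 17, positions 27052915 to 27070473, plus strand), ranged from 3.58 to 5.06 CPM in CAL-29 and from 7.61 to 10.7 CPM in 5637 libraries, and its groups overlapped in both lines. Its log2 fold change was 0.10 ± 0.16 (SE) in CAL-29 cells and -0.20 ± 0.10 (SE) in 5637 cells. NEK11, a kinase of the G2/M checkpoint that acts on CDC25A (chromosome 3, positions 130745694 to 131069309, plus strand), ranged from 6.16 to 7.56 CPM in CAL-29 and from 1.87 to 2.72 CPM in 5637 libraries. Its groups overlapped too, with log2 fold changes of 0.02 ± 0.12 (SE) and -0.15 ± 0.18 (SE). For NEK8 and NEK11, the sign in CAL-29 cells rested on 1 library: without replicate 1 of siKMT9α#1 the value of NEK8 was -0.05, and without replicate 2 that of NEK11 was -0.07. NEK5 (chromosome 13, positions 52607747 to 52703228, minus strand), whose function is little known, had at most 2 counts in a CAL-29 library and 0.5 in a 5637 library, and it did not pass the filter on low counts in either line.

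Counted by the threshold of the study, p below 1e-06, 2 of the 9 members tested were DEGs in CAL-29 cells, NEK2 upward and NEK7 downward, where 30% of all genes tested were DEGs. In 5637 cells, 4 of 9 were DEGs, NEK1, NEK3 and NEK6 upward and NEK7 downward, beside 35.6% of all genes. The upward count in 5637 cells fell from 3 to 2 with total count scaling. It was also 2 in every fit that left out 1 library, except the fit without replicate 1 of siKMT9α#1. At a Benjamini-Hochberg adjusted p below 0.05, the members were 6 of 9 in each line, beside 69.5% of all genes in CAL-29 and 70.7% in 5637 cells. Groups without overlap were also found for 6 of 9 members in each line, beside 72.3% and 72.4% of genes. The median log2 fold change of the 9 members was 0.10 in CAL-29 and 0.13 in 5637 cells, against -0.02 and -0.01 over all genes tested. Nothing is read from these counts, since the family was chosen on the same contrast.

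To ask how the family is expressed before knockdown, its levels in siCtrl cells were compared between the lines, a contrast that the choice of members did not use. All 12 libraries were scaled together, and levels were divided by the length of the GENCODE MANE Select transcript, which allows genes to be compared. In CAL-29 cells, NEK7 stood first with 43.3 ± 0.52 CPM per kilobase (SD, n = 3). NEK9 followed with 12.9 ± 0.36 and NEK6 with 8.73 ± 1.07 CPM per kilobase. NEK2 was at 5.90 ± 0.85, NEK4 at 3.96 ± 0.13 and NEK11 at 2.23 ± 0.04 CPM per kilobase, and each of these was above the next in every library. At the low end, NEK3 (1.60 ± 0.20), NEK1 (1.30 ± 0.20) and NEK8 (1.08 ± 0.06) overlapped with their neighbours.

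In 5637 cells, the order began with NEK6 at 21.6 ± 0.32 CPM per kilobase (SD, n = 3), followed by NEK7 at 17.5 ± 0.77 and NEK9 at 12.5 ± 0.20. NEK2 was at 8.51 ± 0.60, NEK4 at 4.67 ± 0.02, NEK8 at 2.67 ± 0.37 and NEK1 at 2.16 ± 0.12 CPM per kilobase. NEK3 (0.927 ± 0.06) and NEK11 (0.856 ± 0.04) came last of the measurable members and overlapped. Thus NEK7 led the family in CAL-29 cells and NEK6 in 5637 cells. Summing the distinct transcripts of a gene in place of the 1 with the most counts raised NEK6 to 59.3 CPM per kilobase in CAL-29 and 147 in 5637 cells, which counts shared reads several times and would put NEK6 before NEK7 in CAL-29 cells too.

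**Figure D3:**
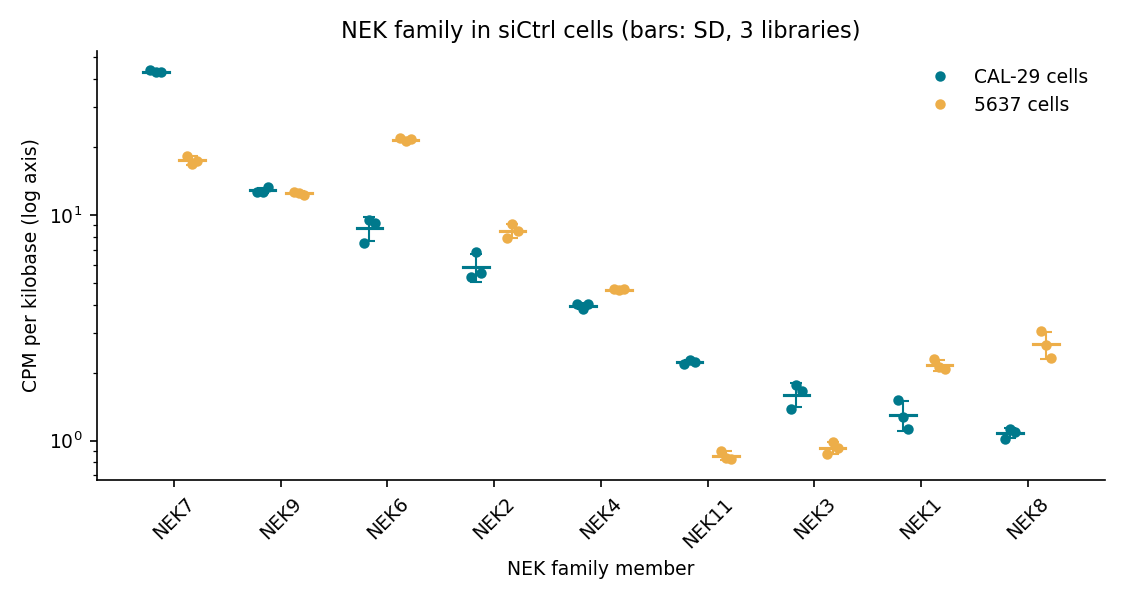
CPM per kilobase of transcript (log axis) of 9 NEK family members in siCtrl-treated CAL-29 (teal) and 5637 (yellow) cells, ordered by the mean in CAL-29 cells. Points are libraries, and lines and bars give the mean and SD of 3 libraries. NEK7 is highest in CAL-29 cells at 43.3, NEK6 is highest in 5637 cells at 21.6, and NEK9 is at 12.9 and 12.5.

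The test of the siCtrl libraries found 5 of the 9 members past p 1e-06, beside 59.8% of all 15395 genes, so the lines differed about as often in the family as elsewhere. NEK7 was lower in 5637 than in CAL-29 cells by -1.30 ± 0.05 on the log2 scale (SE; edgeR's quasi-likelihood test, adjusted p = 3.1e-20). NEK11 was also lower, by -1.38 ± 0.14 (SE; edgeR, adjusted p = 5.6e-10). NEK6 was higher in 5637 cells by 1.31 ± 0.07 (SE; edgeR, adjusted p = 1.3e-16). NEK8 was higher by 1.30 ± 0.13 (SE; edgeR, adjusted p = 4.7e-10), and NEK1 by 0.73 ± 0.10 (SE; edgeR, adjusted p = 1.5e-07). The siCtrl libraries of these 5 members did not overlap between the lines, as was so for 85.1% of all genes. The call of NEK1 at p 1e-06 was lost without replicate 2 or 3 of CAL-29 siCtrl or replicate 1 of 5637 siCtrl, with differences of 0.72, 0.64 and 0.69.

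A smaller difference was seen for NEK2 (0.53 ± 0.09, SE), NEK3 (-0.79 ± 0.18, SE) and NEK4 (0.24 ± 0.06, SE), which passed an adjusted p of 0.05 in edgeR but not p 1e-06. With them, 8 of 9 members passed 0.05, beside 85.4% of all genes. The difference of NEK9 was -0.04 ± 0.04 (log2, SE; edgeR, adjusted p = 0.38). By these data, NEK9 was the member with the most even level across the lines.

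Genes that act with NEK kinases, and a list of other mitotic kinases, were then examined in 6 lists with 66 different genes in all. The lists were chosen with earlier results of these data known. Genes named from them were picked by their changes upon knockdown. Any p-values given for them on this contrast are therefore a description and not an independent test. In CAL-29 cells, 29 of the 63 genes tested went up and 5 went down at p below 1e-06, beside 15% of all genes in each direction. In 5637 cells, the numbers were 19 up and 6 down of 64, beside 18% up and 17.6% down. With 1 library left out, the counts ranged from 21 to 32 up and from 4 to 6 down in CAL-29 cells. They ranged from 17 to 19 up and from 4 to 5 down in 5637 cells. The median log2 fold change over the lists was 0.42 in CAL-29 and 0.16 in 5637 cells. These pooled values include the other mitotic kinases, of which 12 of 14 went up in CAL-29 and 8 of 14 in 5637 cells. They are therefore not the response of NEK partners alone.

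The NEK9-NEK6-NEK7 spindle pathway, which holds the upstream kinases, the motor and the tubulin and microtubule partners, was in part upregulated while NEK7 fell. Of its 10 genes, 5 were upregulated at p 1e-06 in CAL-29 cells (CDK1, PLK1, KIF11, NEDD1 and EML4), beside 15% of all genes. In 5637 cells, 4 were upregulated (CDK1, PLK1, BICD2 and EML4), beside 18%. In either line, 0 were downregulated, beside 15% of all genes in CAL-29 and 17.6% in 5637 cells. The call of NEDD1 was lost without replicate 2 of siCtrl or any 1 of the siKMT9α#1 libraries, and TUBG1 was downregulated in 5637 cells, by -0.25, when libraries were scaled to their total counts, as well as without the filter on low counts. At an adjusted p below 0.05 in edgeR, 9 were higher and 0 lower in CAL-29 cells, and 7 were higher and 2 lower in 5637 cells. Of all genes, 34.3% were higher and 35.2% lower at this threshold in CAL-29 cells. The shares in 5637 cells were 35.1% and 35.6%. PLK1, a kinase that activates NEK9, went from 13.3 ± 1.63 to 55.7 ± 3.90 CPM (SD, n = 3) in CAL-29 cells, with a log2 fold change of 2.07 ± 0.08 (SE; edgeR, adjusted p = 5.0e-15). The change in 5637 cells was 0.56 ± 0.05 (SE; edgeR, adjusted p = 4.2e-11), from 49.5 ± 3.14 to 73.0 ± 4.42 CPM (SD, n = 3). CDK1, the main mitotic kinase, had log2 fold changes of 1.17 ± 0.05 and 0.38 ± 0.05 (SE) in CAL-29 and 5637 cells. EML4, a microtubule-binding substrate of NEK6 and NEK7, had 0.92 ± 0.05 and 0.46 ± 0.04 (SE).

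Most of the other mitotic kinases were upregulated, as was NEK2 in CAL-29 cells. This list shares CDK1 and PLK1 with the spindle pathway, so both genes are counted in each of the lists. Of 14 kinases, 12 were upregulated in CAL-29 cells and 8 in 5637 cells, with medians of 1.02 and 0.40 (log2). Of all genes, 15% and 18% were upregulated. Over the settings run, the counts lay between 10 and 12 in CAL-29 and between 7 and 10 in 5637 cells. The call of HASPIN in 5637 cells was lost in all 6 fits that left out 1 library. In CAL-29 cells, those of PLK4 and HASPIN were each lost in 2 of 6. AURKA, the kinase of centrosome maturation, went from 39.4 ± 2.27 to 131 ± 5.14 CPM (SD, n = 3) in CAL-29 cells and from 50.1 ± 0.02 to 71.5 ± 1.57 CPM in 5637 cells. BUB1B, a kinase-like protein of the spindle checkpoint, had log2 fold changes of 1.62 ± 0.06 and 0.52 ± 0.04 (SE) in CAL-29 and 5637 cells. WEE1, which holds CDK1 inactive, was the 1 downregulated gene of the list in both lines, with -0.83 ± 0.05 and -0.86 ± 0.04 (log2, SE), and it is named here after its values were seen. For comparison, NEK2 had 1.11 and 0.18, and the part of the cell cycle state in these values was not tested.

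**Figure D4:**
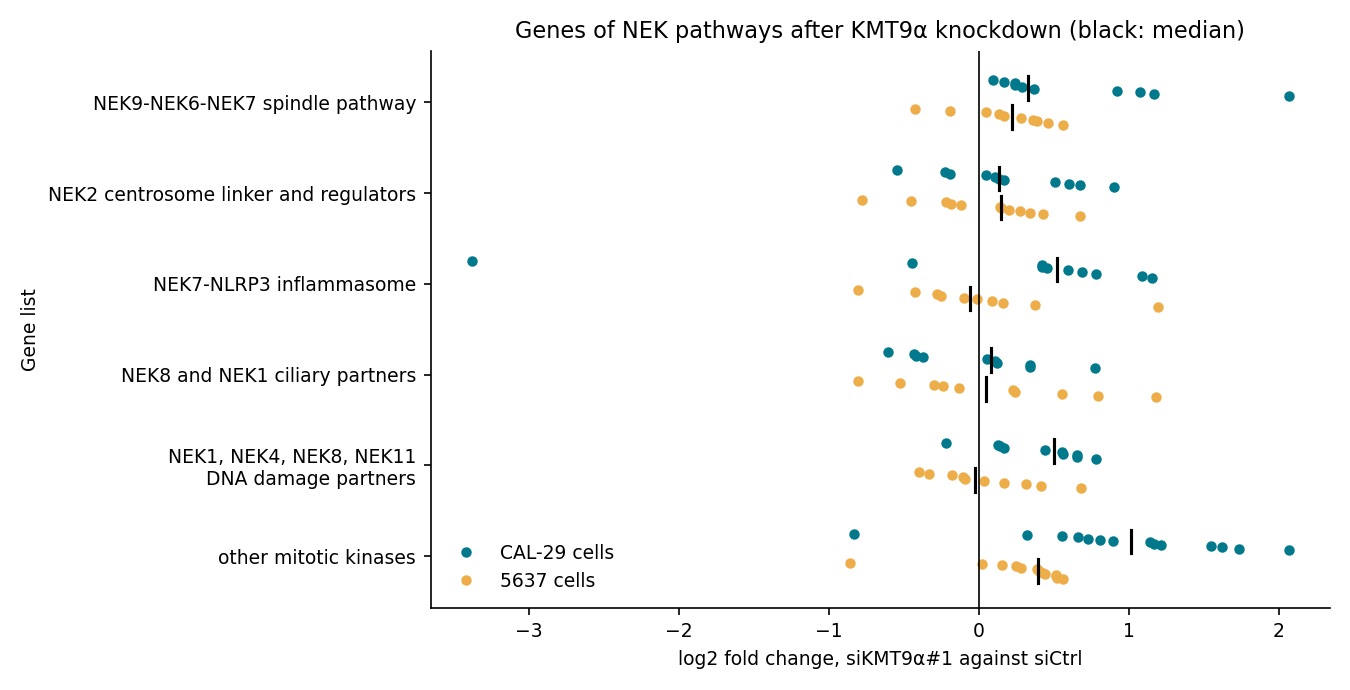
Log2 fold change, siKMT9α#1 against siCtrl, of each tested gene in 6 lists, in CAL-29 (teal) and 5637 (yellow) cells. The lists hold genes that act with NEK kinases and, in 1 list, other mitotic kinases. The median of each list is in black. The mitotic kinases have medians of 1.02 and 0.40, and the point at -3.38 is NLRP3 in CAL-29 cells.

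The genes of the centrosome linker and its regulators were mixed. Of those tested, CAL-29 cells had 3 of 11 upregulated and 1 downregulated, beside 15% of all genes each way. The 5637 cells had 2 of 12 upregulated and 2 downregulated, beside 18% and 17.6% of all genes. SAV1, a scaffold of the Hippo kinases that bind NEK2, was upregulated in both lines, with log2 fold changes of 0.60 ± 0.06 and 0.42 ± 0.03 (SE) in CAL-29 and 5637 cells. PPP1CC, a catalytic subunit of the phosphatase that opposes NEK2, was upregulated as well, with 0.51 ± 0.05 and 0.34 ± 0.03 (SE). The downregulated genes, named after their values were seen, were CTNNB1 in CAL-29 cells (-0.55 ± 0.05, SE) and CEP68 and CNTLN in 5637 cells (-0.78 ± 0.07 and -0.45 ± 0.07, SE). The call of CNTLN was lost with the size factors or the test of DESeq2, and without replicate 1 or 3 of siCtrl or replicate 2 or 3 of siKMT9α#1, with values between -0.45 and -0.41 in those 4 fits.

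In the list of the NLRP3 inflammasome, 2 of 10 genes tested went up and 2 down in 5637 cells, beside 18% and 17.6% of all genes. In CAL-29 cells, 6 of 10 went up and 1 went down, beside 15% of all genes each way. The 6 became 3 without replicate 2 of siCtrl or replicate 2 or 3 of siKMT9α#1, where CASP1, GSDMD and BRCC3 lost their call, and 8 without the filter on low counts or with the replicate number as a block, where PYCARD and IL18 gained one. The downregulated gene in CAL-29 cells was NLRP3, the sensor that NEK7 binds, which is named here after its values were seen. NLRP3 was at 3.51, 3.52 and 2.65 CPM in the siCtrl libraries and at 0.227, 0.335 and 0.358 CPM in the siKMT9α#1 libraries of CAL-29 cells. The groups were wide apart, with a log2 fold change of -3.38 ± 0.29 (SE; edgeR, adjusted p = 1.5e-09), at counts so low that a minimum of 10 counts in every library removed the gene. In 5637 cells, its log2 fold change was -0.43 ± 0.11 (SE; edgeR, adjusted p = 0.0015), short of p 1e-06.

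TXNIP, a protein that binds NLRP3, was upregulated in both lines, from 251 ± 10.02 to 558 ± 6.97 CPM (SD, n = 3) in CAL-29 cells and from 340 ± 5.77 to 779 ± 10.05 CPM in 5637 cells. GSDMD, which forms the pore of pyroptosis, had log2 fold changes of 0.59 ± 0.08 and 0.38 ± 0.05 (SE) in CAL-29 and 5637 cells. In 5637 cells its call was lost without replicate 2 of siKMT9α#1 (0.34) and with scaling to total counts. IL1B, the cytokine that the inflammasome matures, was upregulated in CAL-29 cells (1.09 ± 0.09, SE) and downregulated in 5637 cells (-0.28 ± 0.04, SE). PYCARD, the adaptor of the complex, was the other downregulated gene in 5637 cells (-0.81 ± 0.13, SE) and is named after its values were seen. Its call was lost with DESeq2 and in all 6 fits that left out 1 library, with values between -0.89 and -0.68. CASP5 and P2RX7 did not pass the filter on low counts in either line.

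Among 10 ciliary partners of NEK8 and NEK1, CAL-29 cells had 1 upregulated and 2 downregulated genes, against 3 and 1 in 5637 cells. Of all genes, 15% went each way in CAL-29 cells, and 18% went up and 17.6% down in 5637 cells. With 1 library left out, the counts in CAL-29 cells ranged from 0 to 2 upregulated and from 1 to 3 downregulated. ANKS3, an ankyrin repeat protein that binds the NEK8 partner ANKS6, was upregulated in both lines, with 0.77 ± 0.10 and 1.18 ± 0.07 (log2, SE) in CAL-29 and 5637 cells. Its CAL-29 call was lost without replicate 2 of siCtrl or any 1 of the siKMT9α#1 libraries, with values between 0.69 and 0.80. KIF3A, a motor of ciliary transport, was downregulated in both, with -0.42 ± 0.06 and -0.53 ± 0.06 (SE), and scaling by total counts took its CAL-29 value to -0.34, short of p 1e-06. Its CAL-29 call was kept in 1 of the 6 fits that left out a library, the one without replicate 1 of siCtrl. PKD1, encoding polycystin-1, was downregulated in CAL-29 cells (-0.61 ± 0.06, SE) and upregulated in 5637 cells (0.80 ± 0.04, SE).

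Of 10 DNA damage partners of NEK1, NEK4, NEK8 and NEK11, 4 were upregulated in CAL-29 and 2 in 5637 cells. The shares of all genes were 15% and 18%. In edgeR, 0 were downregulated at p 1e-06 in either line, beside 15% and 17.6% of all genes. The 0 in 5637 cells became 3 without the filter on low counts (ATR, BTRC and XRCC5) and 1 without replicate 3 of siKMT9α#1 (ATR, -0.42). It became 1, XRCC5, with scaling to total counts, a minimum of 10 counts, DESeq2, the replicate block or every transcript. Upward, the CAL-29 call of XRCC6 was lost without replicate 2 of siCtrl or any 1 of the siKMT9α#1 libraries. CHEK1 gained a call there with total count scaling, DESeq2, the block or no low count filter, and PRKDC without replicate 1 of siCtrl. In 5637 cells, XRCC6 gained one with DESeq2, the block or no low count filter. At an adjusted p below 0.05, 7 were higher and 1 lower in CAL-29 cells, and 4 were higher and 4 lower in 5637 cells. CDC25A, the phosphatase that NEK11 marks for degradation, had log2 fold changes of 0.65 ± 0.06 and 0.68 ± 0.05 (SE) in CAL-29 and 5637 cells. RAD54L, a recombination factor that NEK1 phosphorylates, had 0.65 ± 0.07 and 0.41 ± 0.05 (SE). The median of the list was 0.50 in CAL-29 and -0.03 in 5637 cells.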

How the data were processed

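RNAseq libraries of CAL-29 and 5637 cells, 3 per siRNA and line, were grouped by the sample labels. STAR was used by the authors to align to hg19, Homer (default settings) to count on RefSeq transcripts and edgeR to test. They deposited estimated counts without normalization for 37400 transcripts, in steps of 0.5. The authors' own p-value and log2 fold change columns were not used. All other columns of per-sample values were mapped to a sample.

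Counts of the most abundant transcript of each symbol were rounded. In edgeR 4.0.16 (R 4.3.3), libraries were TMM-scaled, filtered with filterByExpr and tested with the quasi-likelihood F test in each line, and in 1 fit of all 12 libraries for siCtrl cells and differences between lines. DEGs had an unadjusted p below 1e-06. Standard errors are the log2 difference divided by the square root of F. The smallest p of an exact permutation test at this size is 0.1. Replicates differed beyond counting noise, so their spread limits the precision. The fits were tested on simulated counts.

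Positions, lengths and 3′ UTRs come from GENCODE v44lift37 on GRCh37. The members and lists were chosen with earlier results of these data known. Named genes are all members, N6AMT1 and, per list, up to 3 genes that passed 1e-06 and moved alike in both lines, by largest mean change, and any that passed it in opposite directions. Alternatives were other scalings, filters, DESeq2 1.42.0, every transcript, the replicate number as a block, summed transcripts, the shortest 3′ UTR and each library left out.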

Additional observations from a re-analysis of the deposited data

Results flagged for a closer look

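NEK6 was lower than siCtrl in all 3 siKMT9α#1 libraries of CAL-29 cells and higher in all 3 of 5637 cells. The responses differed by 0.82 (log2, 5637 minus CAL-29), and the difference was not tested, because the family was chosen on this contrast.

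For 5 genes named from the lists, the responses of the lines differed past p 1e-06 in edgeR's interaction test over all 12 libraries, given here as 5637 minus CAL-29 on the log2 scale. The mitotic genes responded less in 5637 cells, by -1.52 for PLK1 (adjusted p = 2.1e-13), -1.23 for AURKA (adjusted p = 5.4e-15), -1.12 for BUB1B (adjusted p = 1.7e-13) and -0.80 for CDK1 (adjusted p = 2.7e-10). EML4 differed by -0.47 (adjusted p = 2.4e-07). The other genes named for moving alike in both lines did not pass p 1e-06 here: SAV1, PPP1CC, TXNIP, GSDMD, ANKS3, KIF3A, CDC25A and RAD54L. The share of all genes that passed is not given, so nothing is read from the number of named genes that did. All were named by their knockdown changes in the same libraries, so these p-values are a description. IL1B and PKD1 were named because they were DEGs in opposite directions, so their differences of -1.39 and 1.39 are given as a description, without a test. Cell line, reagent and siRNA dose cannot be told apart in these differences.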

How the results depend on the processing

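The log2 fold change of NEK7 lay between -2.99 and -2.84 in CAL-29 and between -2.75 and -2.66 in 5637 cells under every alternative run, and between -2.99 and -2.85 and between -2.73 and -2.66 with each library left out. Its difference between siCtrl cells lay between -1.35 and -1.26. In CAL-29 cells, the members past p 1e-06 became 2 higher and 2 lower without the filter on low counts, and 2 lower with DESeq2. They ranged from 1 to 2 in each direction with a library left out, and were 2 and 2 without replicate 1 of siCtrl. In 5637 cells, the members past an adjusted p of 0.05 became 3 higher and 2 lower with total count scaling and 3 higher with DESeq2. With a library left out, they ranged from 3 to 5 higher and from 1 to 2 lower. They were 3 higher without replicate 1 or 3 of siCtrl or replicate 1 of siKMT9α#1, and 2 lower without the latter 2 of these. Without the low count filter, 11 in place of 6 genes of the lists were downregulated in 5637 cells. The shortest 3′ UTR left 1 member in place of 2 with ACATTCA. The causes were not tested.

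With the replicate number as a block, the members past p 1e-06 in CAL-29 cells were 2 higher and 2 lower, and the block moved no other count of members by over 1.5 times. Libraries of the same number did not deviate together, with correlations between -0.01 and 0.08, and share only a number. Total count scaling shifted the median of all genes by 0.08 in CAL-29 and -0.05 in 5637 cells (log2). No setting run reversed a difference past p 1e-06. NEK5 had at most 2 counts in a library, and the counts of NEK3, NEK8 and NEK11 were low, which limits what can be said of them.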
